A study of Homo sapiens with 12 samples.

Results

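The kinesins are motor proteins that step along microtubules, and their genes carry the names KIF and KIFC followed by a number. The expression table held 34687 gene names, and the 42 that begin with KIF or KIFC and a digit were taken, by name alone, as the kinesin genes. They were described in 2 classes. The mitotic kinesins were the 10 genes KIF2C, KIF4A, KIF11, KIF14, KIF15, KIF18A, KIF20A, KIF22, KIF23 and KIFC1, and the other 32 are called the other kinesins. All 42 names were current symbols of the RefSeq gene table. The study treated HCT116, an established colorectal cancer line, and PANC1, an established pancreatic adenocarcinoma line, with ICG-001 at a dose of 10 uM, with C646 at the same dose, or with the solvent DMSO at 0.05%. Cells were taken at 12 h or at 96 h, and total RNA was hybridised to Illumina HumanHT-12 v4 BeadChips. ICG-001 blocks the binding of the co-activator CBP to β-catenin, and C646 inhibits the acetyltransferase activity of CBP and of p300. Line, treatment and time gave 12 groups, and each group had 1 column of signals, the authors' mean of 2 arrays or, for PANC1 with ICG-001 at 12 h, of 3 arrays. The study compared the drugs to ask how the transcriptome of each line responded to them.

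Kinesins convert ATP into movement along microtubules. Some members carry vesicles, mitochondria and ciliary parts through the cytoplasm, whereas others build the spindle, move and align chromosomes, or organise the midzone, the band of overlapping microtubules where the dividing cell is cut. Transcripts of most mitotic kinesins accumulate late in the cell cycle, so their level in a culture is read together with its proliferation. Some of the other kinesins of the rule also act in division, KIF18B, KIF20B and KIF2A among them. Only KIF18B and KIF20B were moved to the mitotic class as an alternative.

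Single-array signals were not used here, so differences have no replicate check, no test was made, and every difference below is a size without an error. A gene entered a comparison when the brighter of its signals exceeded the detection limit, which marks the upper edge of the background values. A kinesin is said to have risen or fallen where its signals differed by 1.5-fold or more. Other ratios are given as values on the log2 scale, where 0 is no difference and 0.58 is close to 1.5-fold. Detection limits of the HCT116 columns were signals of 143 to 144 and those of the PANC1 columns 135 to 138, and between 44.5% and 47.8% of all gene names exceeded it in a column. Among genes under the limit in every column of a line, the SD of the log2 ratios between columns was 0.062 to 0.073. Of the line markers, EPCAM and CDH1 were above the limit in every column, at 6553 to 9562 and 885 to 1632 in HCT116, where CDX2 stood at 354 to 452 and VIL1 and LGALS4 were at or under the limit. In PANC1 the mesenchymal filament gene VIM stood at 14637 to 18144, and KRT19 was above the limit.

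The 10 mitotic kinesins were above the limit in all 12 columns. The ICG-001 96 h column was the lowest of the 6 columns for 10 of 10 in HCT116 and for 9 of 10 in PANC1, where KIF2C was the exception. The same column was the lowest for 18.5% of all genes above the limit in HCT116 and for 23.2% in PANC1, and for 4 of 18 and 3 of 21 of the other kinesins. In HCT116, ICG-001 over DMSO at 96 h left 10 of 10 mitotic kinesins below 0 with a median log2 ratio of -0.42, and KIF4A and KIF20A fell, 2 of 10 against 5.11% of all genes. In PANC1, 9 of 10 were below 0 with a median of -0.53, and KIF4A, KIF11, KIF14, KIF20A and KIFC1 fell, 5 of 10 against 3.55% of all genes. Against DMSO at 12 h the counts were 6 of 10 in each line, where 5.19% and 5.25% of all genes fell, and the medians were -0.71 and -0.63. The median of all genes lay between -0.0126 and 0.0049 over the 8 comparisons of a drug with DMSO. In a bulk culture, fewer dividing cells and less RNA per dividing cell cannot be told apart.

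**Figure D1:**
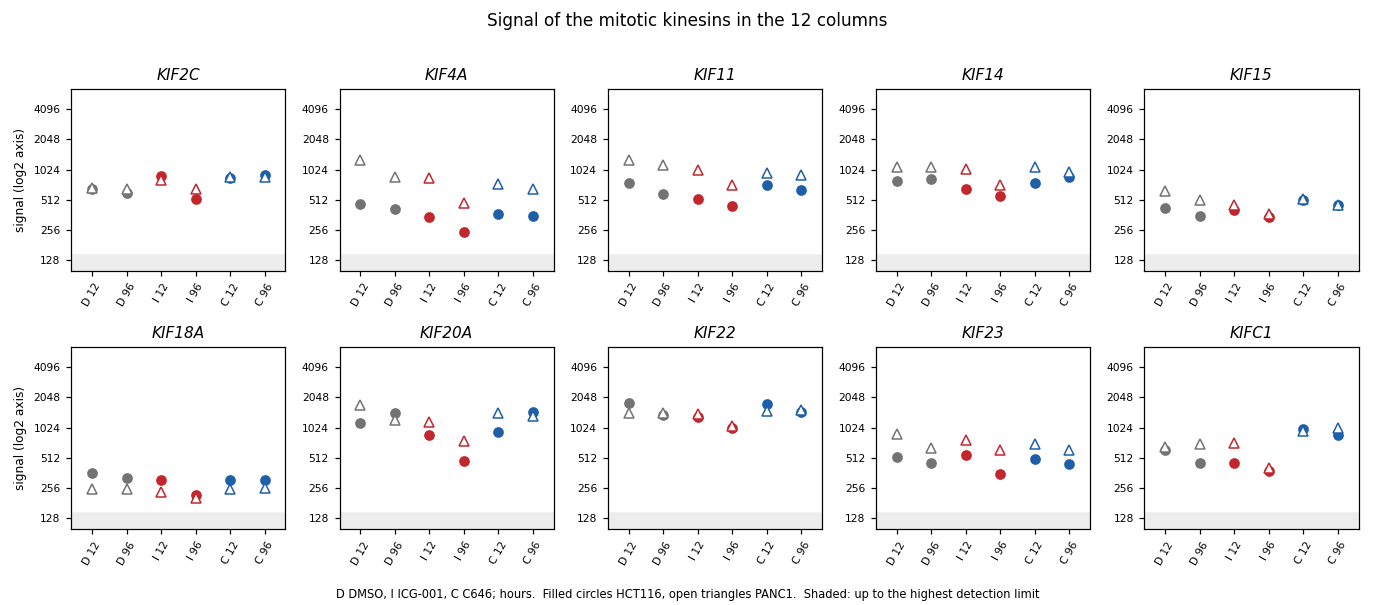
Signal intensity of the 10 mitotic kinesins (vertical axis, log scale) at 12 and 96 h in DMSO, ICG-001 and C646, a panel per gene, with filled circles for HCT116, open triangles for PANC1 and shading up to the highest detection limit. Each point is 1 column, the authors' mean of 2 or 3 arrays, and ICG-001 at 96 h is the lowest point of its line in every panel except for PANC1 in KIF2C.

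Among the kinesins of the midzone and cytokinesis, KIF20A had the widest range in HCT116. It brings the chromosomal passenger complex to the midzone. Its signal in HCT116 was 1135 at 12 h and 1418 at 96 h in DMSO, 869.8 and 472 in ICG-001 and 938 and 1457 in C646. The ICG-001 96 h column stood alone at the bottom, and KIF20A fell 3.01-fold against DMSO of the same time while the C646 96 h column lay near DMSO (log2 0.04). In PANC1, KIF20A read 1702 and 1229.6 in DMSO at 12 and 96 h, 1171 and 750.4 in ICG-001 and 1447 and 1328 in C646. It fell 1.64-fold with ICG-001 at 96 h, from a DMSO level that was itself lower at 96 h than at 12 h (log2 -0.47).

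KIF4A, a chromosome-bound motor that compacts chromosomes and sets the length of midzone microtubules, was below DMSO in 8 of 8 drug comparisons. In HCT116 its signal was 462 at 12 h and 419 at 96 h in DMSO, 349 and 244 in ICG-001 and 367 and 354 in C646. In PANC1, KIF4A signals were 1279 and 873 in DMSO at 12 and 96 h, 849.9 and 479.8 in ICG-001 and 735 and 663 in C646. In each line both DMSO columns lay above all 4 drug columns. KIF4A fell 1.71-fold in HCT116 and 1.82-fold in PANC1 with ICG-001 at 96 h. In PANC1 it also fell at 12 h, with a log2 ratio of -0.59 with ICG-001 and 1.74-fold with C646. The PANC1 DMSO 12 h column was the highest of the line for KIF4A, and against DMSO at 96 h the log2 ratios of the 12 h drug columns were -0.04 and -0.25.

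KIF23, which with RACGAP1 forms the centralspindlin complex, did not reach 1.5-fold in any comparison. It gave HCT116 signals of 524 at 12 h and 453 at 96 h in DMSO, 549 and 356 in ICG-001 and 504 and 448 in C646. In PANC1, KIF23 signals were 895 and 645 in DMSO at 12 and 96 h, 779 and 609.9 in ICG-001 and 706 and 619 in C646. ICG-001 at 96 h stood alone at the bottom in HCT116, and in PANC1 it was the lowest and DMSO at 12 h the highest. Its ratios for ICG-001 over DMSO at 96 h were -0.35 and -0.08. KIF14, a motor of the midbody that binds PRC1 and citron kinase, gave HCT116 signals of 784 at 12 h and 817 at 96 h in DMSO, 651 and 564 in ICG-001 and 758 and 861 in C646. In PANC1, KIF14 signals were 1077 and 1088 in DMSO at 12 and 96 h, 1029.7 and 715 in ICG-001 and 1076 and 966 in C646. It was lower than DMSO by a log2 ratio of -0.54 in HCT116 and fell 1.52-fold in PANC1 with ICG-001 at 96 h. The other 5 PANC1 columns lay between 966 and 1088 for KIF14.

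Among the motors that build the bipolar spindle, KIFC1 separated the drugs. KIFC1 walks toward the minus ends of microtubules, focuses spindle poles and clusters extra centrosomes. Its signal in HCT116 was 609 at 12 h and 456 at 96 h in DMSO, 460.0 and 379 in ICG-001 and 989 and 866 in C646. Both C646 columns stood above both DMSO columns, and both ICG-001 columns lay below both C646 columns. KIFC1 rose 1.62-fold at 12 h and 1.90-fold at 96 h with C646 in HCT116. In PANC1 it read 652 and 710.4 in DMSO at 12 and 96 h, 721 and 411 in ICG-001 and 955 and 1017 in C646. There the C646 ratios were 0.55 and 0.52, just under the threshold, and KIFC1 fell 1.73-fold with ICG-001 at 96 h.

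KIF11, the tetrameric motor that pushes spindle poles apart, gave HCT116 signals of 760.2 at 12 h and 592 at 96 h in DMSO, 527 and 442 in ICG-001 and 721 and 643 in C646. In PANC1, KIF11 signals were 1278 and 1134 in DMSO at 12 and 96 h, 1004 and 714 in ICG-001 and 948 and 913 in C646. DMSO at 12 h was the highest in each line, and the ICG-001 columns were the lowest pair in HCT116. With ICG-001 at 96 h in PANC1 it fell 1.59-fold, and in HCT116 its ICG-001 ratios were -0.53 at 12 h and -0.42 at 96 h. Against DMSO at 12 h the ICG-001 96 h ratio of KIF11 in HCT116 was -0.78, past 1.5-fold. KIF15, which can take over part of the work of KIF11, gave HCT116 signals of 428 at 12 h and 351 at 96 h in DMSO, 407 and 342 in ICG-001 and 509 and 449.9 in C646. In PANC1, KIF15 signals were 629.6 and 505 in DMSO at 12 and 96 h, 459 and 369 in ICG-001 and 519 and 457 in C646. ICG-001 at 96 h was the lowest in each line, by a small margin below DMSO at 96 h in HCT116. None of the 14 comparisons reached 1.5-fold for KIF15. Against DMSO at 12 h, its ICG-001 96 h ratio in PANC1 was -0.77, past 1.5-fold, where 5.25% of all genes fell. With C646 its HCT116 ratios were 0.25 and 0.36, above DMSO, and its PANC1 ratios -0.28 and -0.14, below it.

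The motors that act on chromosomes and microtubule ends differed among themselves. KIF2C, a microtubule depolymerase that corrects faulty attachments of chromosomes, gave HCT116 signals of 661 at 12 h and 595 at 96 h in DMSO, 881 and 523 in ICG-001 and 846 and 899 in C646. In PANC1, KIF2C signals were 666 and 655 in DMSO at 12 and 96 h, 816 and 657 in ICG-001 and 873 and 863 in C646. In each line both C646 columns and the 12 h ICG-001 column lay above the other 3 columns. It was above DMSO in 7 of 8 drug comparisons and rose 1.51-fold with C646 at 96 h in HCT116. KIF18A, which dampens the movements of aligned chromosomes, gave HCT116 signals of 367 at 12 h and 323 at 96 h in DMSO, 307 and 219 in ICG-001 and 305 and 309.7 in C646. In PANC1, KIF18A signals were 249.9 and 249.7 in DMSO at 12 and 96 h, 237 and 202 in ICG-001 and 251 and 257 in C646. ICG-001 at 96 h was the lowest in each line, and the other 5 columns of PANC1 lay between 237 and 257. Its largest ratio to DMSO of the same time was -0.56, with ICG-001 at 96 h in HCT116, short of 1.5-fold. Against DMSO at 12 h that column stood at -0.75, past 1.5-fold, where 5.19% of all genes fell. KIF22, a chromosome-arm motor, gave HCT116 signals of 1794 at 12 h and 1364 at 96 h in DMSO, 1306 and 1017 in ICG-001 and 1754 and 1474 in C646. In PANC1, KIF22 signals were 1429 and 1445 in DMSO at 12 and 96 h, 1386 and 1064 in ICG-001 and 1497 and 1529 in C646. ICG-001 at 96 h was the lowest in each line, and the other 5 columns of PANC1 lay between 1386 and 1529. Its ICG-001 ratios at 96 h were -0.42 and -0.44, and its C646 ratios in both lines lay between -0.03 and 0.11. Against DMSO at 12 h the ICG-001 96 h ratios of KIF22 were -0.82 in HCT116, past 1.5-fold, and -0.42 in PANC1.

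At 12 h fewer mitotic kinesins reached 1.5-fold with ICG-001 than at 96 h. With ICG-001 in HCT116, 0 of 10 mitotic kinesins reached 1.5-fold in either direction, against 4.16% of all genes lower and 4.82% higher, and 8 of 10 were below 0 with a median of -0.33. Against DMSO at 96 h that median was -0.068, and KIF20A passed at -0.71, where 6.94% of all genes fell. In PANC1, KIF4A alone fell, 1 of 10 against 0.335% of all genes lower and 2.17% higher, and the median was -0.14. Against DMSO at 96 h that median was -0.066 and none passed. With C646 at 12 h, KIFC1 alone rose in HCT116, where 2.58% of all genes rose and 1.52% fell, and KIF4A alone fell in PANC1, where 2.69% fell and 3.98% rose. The class medians were -0.05 and -0.12. With C646 at 96 h, KIF2C and KIFC1 rose in HCT116, 2 of 10 against 1.9% of all genes higher and 1.23% lower, with 7 of 10 above 0 and a median of 0.09. Against DMSO at 12 h their log2 ratios were 0.44 and 0.51, short of 1.5-fold. In PANC1 at 96 h no mitotic kinesin reached 1.5-fold with C646, where 1.19% of all genes fell and 2.81% rose, and the median was -0.01. Against DMSO at 12 h KIF4A stood at -0.95 and KIFC1 at 0.64, both past 1.5-fold where 3.89% of all genes fell and 5.78% rose, and the median was -0.26. With C646 at 12 h the medians were 0.22 in HCT116 and 0.045 in PANC1 against DMSO at 96 h, and the HCT116 median at 96 h was -0.076 against DMSO at 12 h, so these 3 signs were not kept. KIF20A then also passed with C646 at 12 h in HCT116, at -0.60, where 5.63% of all genes fell.

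The promoters of some of these genes are shown because many genes of late cell cycle phases carry the cell cycle homology region, with the core TTTGAA, and CCAAT boxes close to their start. Each sequence runs 5′ to 3′ along the strand of the gene from 250 bases before to 50 bases after the RefSeq start, build GRCh38.p14, and capitals mark TTTGAA or CCAAT on either strand (TTCAAA and ATTGG on the other). KIF4A (chrX:70289854-70290153, plus strand), KIF20A (chr5:138178862-138179161, plus strand) and KIFC1 (chr6:33391573-33391872, plus strand) fell with ICG-001 at 96 h in at least 1 line. KIF2C (chr1:44739587-44739886, plus strand) was above DMSO in 7 of 8 drug comparisons, and KIF1A (chr2:240821354-240821653, minus strand) is the other kinesin that rose.
KIF4A: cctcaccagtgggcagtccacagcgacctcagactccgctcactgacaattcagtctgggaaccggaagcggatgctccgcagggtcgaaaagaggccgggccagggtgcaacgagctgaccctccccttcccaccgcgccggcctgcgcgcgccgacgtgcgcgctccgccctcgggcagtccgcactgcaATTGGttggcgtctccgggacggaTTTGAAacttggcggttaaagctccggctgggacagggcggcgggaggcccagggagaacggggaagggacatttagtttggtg
KIF20A: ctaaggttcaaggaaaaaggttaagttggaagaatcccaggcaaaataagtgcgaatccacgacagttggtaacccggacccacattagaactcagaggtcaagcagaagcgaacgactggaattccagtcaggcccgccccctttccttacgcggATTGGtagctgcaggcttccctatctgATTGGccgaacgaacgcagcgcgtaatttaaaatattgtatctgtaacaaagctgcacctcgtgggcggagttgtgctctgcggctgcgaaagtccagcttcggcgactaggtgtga
KIFC1: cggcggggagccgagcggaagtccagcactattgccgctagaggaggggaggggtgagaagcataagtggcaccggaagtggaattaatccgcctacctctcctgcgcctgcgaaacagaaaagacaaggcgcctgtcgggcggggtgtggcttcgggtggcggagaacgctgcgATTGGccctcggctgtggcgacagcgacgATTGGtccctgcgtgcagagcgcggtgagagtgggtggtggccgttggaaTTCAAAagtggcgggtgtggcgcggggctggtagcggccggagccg
KIF2C: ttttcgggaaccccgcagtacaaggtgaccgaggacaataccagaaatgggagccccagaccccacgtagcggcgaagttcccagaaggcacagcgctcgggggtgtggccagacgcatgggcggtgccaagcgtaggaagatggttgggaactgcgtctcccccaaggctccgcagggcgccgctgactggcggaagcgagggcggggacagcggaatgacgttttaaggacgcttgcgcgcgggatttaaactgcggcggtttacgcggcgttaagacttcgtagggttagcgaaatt
KIF1A: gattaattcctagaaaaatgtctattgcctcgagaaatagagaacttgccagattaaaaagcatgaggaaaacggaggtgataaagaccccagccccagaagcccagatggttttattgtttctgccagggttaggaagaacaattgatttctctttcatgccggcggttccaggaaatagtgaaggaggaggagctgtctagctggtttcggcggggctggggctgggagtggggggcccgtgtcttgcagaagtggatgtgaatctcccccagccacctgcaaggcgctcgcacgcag

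Of the 42 kinesins, 34 had a promoter in the RefSeq table used. TTTGAA was present on either strand in 7 of 10 mitotic kinesins (70%), in 4 of 24 other kinesins (16.7%) and in 15.4% of all 27305 promoters. CCAAT was present in 8 of 10 (80%), in 9 of 24 (37.5%) and in 35.7%. Both were present in 6 of 10 (60%), in 4 of 24 (16.7%) and in 6.08%, and the other kinesins with both were KIF4B, KIF5B, KIF18B and KIF20B. The strings shared no letters in the windows printed. Counted from the start, with the first transcribed base as 1, TTTGAA began at -34 and ATTGG at -58 in KIF4A. KIF20A held ATTGG at -94 and -67 and no TTTGAA, and KIFC1 held ATTGG at -75 and -46 and TTCAAA at 5. Neither string was found in the KIF2C or KIF1A window. A match is a description of the letters and not of a bound site.

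Set side by side without DMSO, ICG-001 gave lower mitotic kinesin signals than C646 at 96 h. In HCT116, 10 of 10 were lower with a median log2 ratio of -0.54, and KIF2C, KIF14, KIF20A and KIFC1 were at least 1.5-fold lower, 4 of 10 against 3.29% of all genes lower and 3.24% higher. In PANC1, 10 of 10 were also lower with a median of -0.41, and KIF20A and KIFC1 passed 1.5-fold, 2 of 10 against 3.45% lower and 3.3% higher. KIF20A was 3.09-fold lower with ICG-001 than with C646 in HCT116 and 1.77-fold lower in PANC1, and KIFC1 was 2.28-fold and 2.47-fold lower. At 12 h KIFC1 was 2.15-fold lower with ICG-001 in HCT116, the sole mitotic kinesin past 1.5-fold there, where 2.81% of all genes were lower and 3.44% higher. No mitotic kinesin passed in PANC1 at 12 h, where 0.923% were lower and 1.57% higher. The class medians at 12 h were -0.16 in HCT116 and -0.09 in PANC1.

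**Figure D2:**
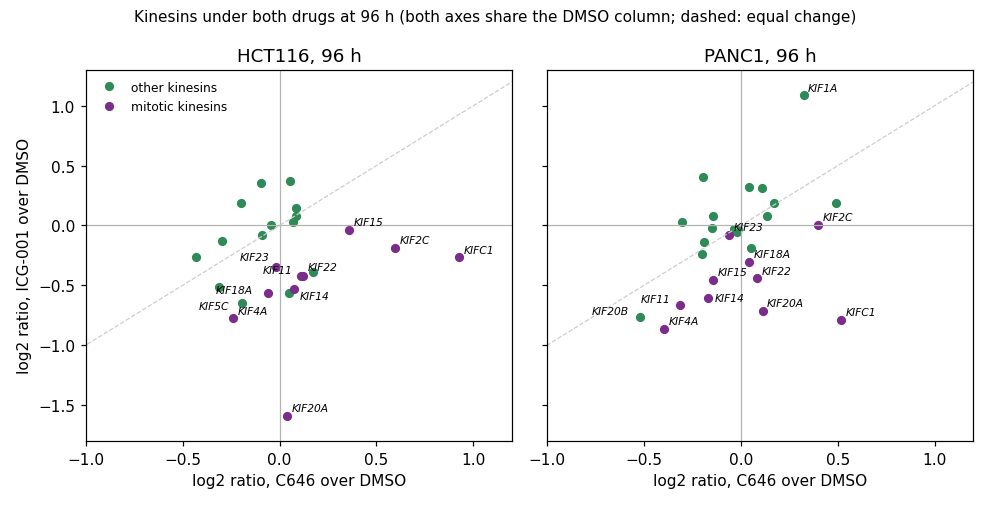
Log2 ratio to DMSO at 96 h for each kinesin above the limit, C646 on the horizontal and ICG-001 on the vertical axis, a panel per line. Each point is 1 gene, both axes use the same DMSO column, and the dashed line marks equal ratios. KIF20A is the lowest point in HCT116 (-1.59) at a C646 ratio near 0, KIFC1 lies right of 0 and below 0 in both panels, and KIF1A is the highest point in PANC1 (1.09).

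The other kinesins divided into genes that were not measurable and genes that mostly stayed near 0. Some of the measurable ones, such as KIF6 at 133 to 151 and KIF27 at 134 to 153, lay close to the limit. The mitotic kinesins read 202 to 1794. Background was left in the signals and understates the ratios of dim genes, so the classes also differ in how large a ratio could appear. Of the 32, 18 were above the limit in at least 1 HCT116 column and 21 in at least 1 PANC1 column. In neither line were the 10 genes KIF2B, KIF4B, KIF5A, KIF9, KIF12, KIF17, KIF18B, KIF19, KIF25 and KIF26B above it by the row of that name, and the ratios of those rows are not used. KIF18B has a further row, described with KIF20B. KIF4B is a near copy of KIF4A. The KIF4B row stayed at or under the limit where KIF4A read up to 1279, so it showed no KIF4A signal. Whether the KIF4A row also takes up KIF4B was not tested. The median log2 ratio of the other kinesins lay between -0.11 and 0.05 over the 8 drug comparisons. Against DMSO of the same time, none reached 1.5-fold with ICG-001 at 12 h or with C646 at 96 h in either line. None did so with C646 at 12 h in HCT116. Against DMSO of the other time, KIF1B passed with ICG-001 at 12 h in HCT116, at -0.59, where 6.94% of all genes fell. KIF20B then passed with C646 at 96 h in PANC1, at -0.63, where 3.89% fell. KIF5B in HCT116 and KIFC2 in PANC1 also passed with C646 at 96 h, as described below.

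**Figure D3:**
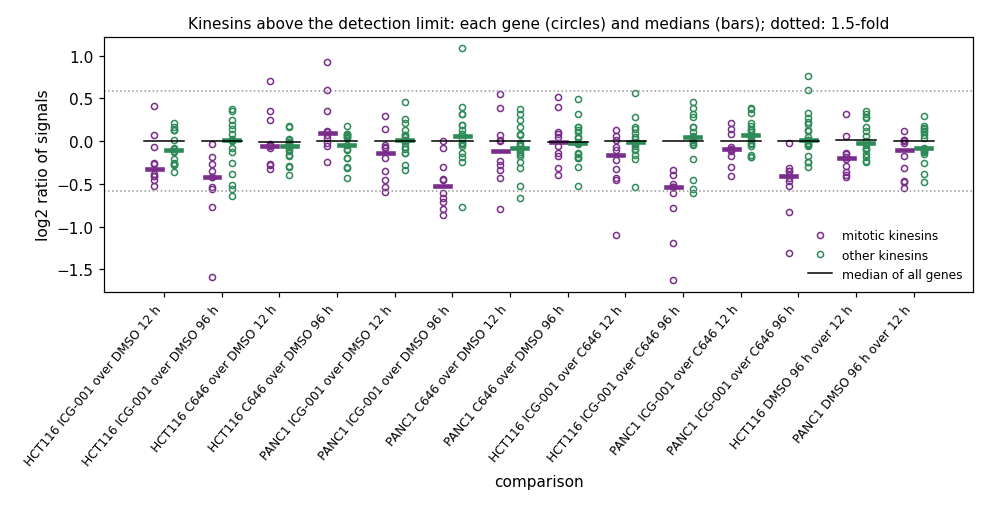
Log2 ratio in each of the 14 comparisons for the mitotic kinesins and the other kinesins. Circles are genes above the limit, coloured bars are class medians and black marks are the median of all genes. The mitotic medians lie at -0.42 and -0.53 for ICG-001 over DMSO at 96 h, and the medians of the other kinesins stay between -0.11 and 0.07.

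The vesicle motors of the KIF1 group gave the largest rise of the family. KIF1A carries synaptic vesicle precursors in neurons. Its signal in PANC1 was 2309 at 12 h and 2544 at 96 h in DMSO, 3184 and 5403 in ICG-001 and 2741 and 3182 in C646. The ICG-001 96 h column was the highest and both DMSO columns were the lowest, and KIF1A rose 2.12-fold against DMSO of the same time, where 3.84% of all genes rose. It was also higher with ICG-001 than with C646 at 96 h, at a log2 ratio of 0.76. At 12 h the ICG-001 ratio to DMSO was 0.46, and the C646 ratios were 0.25 at 12 h and 0.32 at 96 h. In HCT116, KIF1A was at or under the limit in all 6 columns, at 125 to 141, so no ratio is given there.

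KIF1B, which carries mitochondria and vesicle precursors, gave HCT116 signals of 568 and 709 in DMSO at 12 and 96 h, 472 and 481 in ICG-001 and 502 and 733 in C646. In PANC1, KIF1B signals were 341 at 12 h and 367 at 96 h in DMSO, 375 and 417 in ICG-001 and 426 and 413 in C646. Both ICG-001 columns were the lowest in HCT116, whereas both DMSO columns were the lowest in PANC1. It fell in no comparison with DMSO of the same time, with ICG-001 ratios of -0.27 and -0.56 in HCT116. Against DMSO at 96 h the ICG-001 12 h ratio there was -0.59, past 1.5-fold. KIF1B was 1.52-fold lower with ICG-001 than with C646 in HCT116 at 96 h. KIF1C, a motor of secretory vesicles, gave HCT116 signals of 310.5 and 262 in DMSO at 12 and 96 h, 339 and 339 in ICG-001 and 308 and 272 in C646. In PANC1, KIF1C signals were 377 at 12 h and 289 at 96 h in DMSO, 342 and 383 in ICG-001 and 262 and 252 in C646. Both ICG-001 columns were the highest in HCT116, and both C646 columns were the lowest in PANC1. KIF1C was 1.52-fold higher with ICG-001 than with C646 in PANC1 at 96 h, where KIF1A and KIF1C were the 2 of 19 other kinesins past 1.5-fold against 3.3% of all genes higher and 3.45% lower, and its ratios to DMSO were 0.41 for ICG-001 and -0.20 for C646.

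Of the conventional kinesins, which move many cargoes with kinesin light chains, KIF5B was above the limit in all 12 columns. KIF5C gave HCT116 signals of 203 and 259 in DMSO at 12 and 96 h, 192 and 165 in ICG-001 and 200.5 and 226 in C646. It stood at 125 to 138 in PANC1, above the limit in 1 of 6 columns. It fell 1.57-fold with ICG-001 at 96 h in HCT116, 1 of 16 other kinesins against 5.11% of all genes lower and 5.14% higher. Its DMSO signal was higher at 96 h than at 12 h, and against DMSO at 12 h the log2 ratio was -0.30. KIF5B gave HCT116 signals of 955 at 12 h and 839 at 96 h in DMSO, 1074 and 701 in ICG-001 and 728 and 622 in C646. In PANC1, KIF5B signals were 1006 and 843 in DMSO at 12 and 96 h, 995 and 859.6 in ICG-001 and 924 and 684 in C646. C646 at 96 h was the lowest in each line. KIF5B reached 1.5-fold in none of the 14 comparisons, and its largest ratio was 0.56, for ICG-001 over C646 at 12 h in HCT116. Its HCT116 signal of 622 with C646 at 96 h was more than 1.5-fold below the 955 of DMSO at 12 h. In that comparison 2.92% of all genes fell.

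KIF3B, a subunit of the kinesin-2 motor that works in cilia and in vesicle transport, was below DMSO in 8 of 8 drug comparisons. It gave HCT116 signals of 524 at 12 h and 547 at 96 h in DMSO, 434 and 382 in ICG-001 and 426 and 439.9 in C646. In PANC1, KIF3B signals were 1025 and 733 in DMSO at 12 and 96 h, 814 and 706 in ICG-001 and 648 and 722 in C646. Both DMSO columns lay above all 4 drug columns in HCT116, and in PANC1 DMSO at 12 h was the highest and C646 at 12 h the lowest. KIF3B fell 1.58-fold with C646 at 12 h in PANC1, 1 of 18 other kinesins against 2.69% of all genes lower. Against DMSO at 96 h the log2 ratio of that column was -0.18. Its partner KIF3A was above the limit in PANC1 alone, in the DMSO and C646 columns of 96 h at 151 and 156.

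KIF20B, which acts late in cytokinesis, gave HCT116 signals of 899.9 at 12 h and 843 at 96 h in DMSO, 699.8 and 643 in ICG-001 and 1014 and 952 in C646. In PANC1, KIF20B signals were 1681 and 1559 in DMSO at 12 and 96 h, 1388 and 916 in ICG-001 and 1424 and 1087 in C646. The ICG-001 columns were the lowest pair in HCT116, and in PANC1 both DMSO columns lay above all 4 drug columns. It was lowest with ICG-001 at 96 h in both lines, and it fell in PANC1 at a log2 ratio of -0.77. KIF20B and KIF1A were the 2 of 18 other kinesins past 1.5-fold in that comparison, against 3.55% of all genes lower and 3.84% higher. KIF18B, a depolymerase of astral microtubules, was at or under the limit in all 12 columns at 116 to 135, and a second row that RefSeq ties to the gene by its number, LOC146909, stood at 130 to 152 and was above the limit in 2 HCT116 and 3 PANC1 columns. With KIF18B and KIF20B counted among the mitotic kinesins, the PANC1 median with ICG-001 at 96 h was -0.61, against -0.53 without them. The KIF18B row was under the limit, so KIF20B alone made this shift. KIF2A, which acts at spindle poles, was not moved and stood at 0.08 in that comparison. KIFC2, a motor known from neurons, gave HCT116 signals of 698 at 12 h and 844 at 96 h in DMSO, 581 and 1081 in ICG-001 and 673 and 788 in C646. In PANC1, KIFC2 signals were 384 and 472 in DMSO at 12 and 96 h, 444 and 536 in ICG-001 and 497 and 663 in C646. The ICG-001 columns held the highest (96 h) and the lowest (12 h) signal in HCT116, and C646 at 96 h was the highest in PANC1. None of the 14 comparisons reached 1.5-fold for KIFC2, the largest being 0.49 for C646 at 96 h in PANC1. Against DMSO at 12 h it was more than 1.5-fold higher with ICG-001 at 96 h in HCT116 (1081 and 698). The same held with C646 at 96 h in PANC1 (663 and 384). Of all genes, 6.36% and 5.78% rose in these 2 comparisons.

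**Figure D4:**
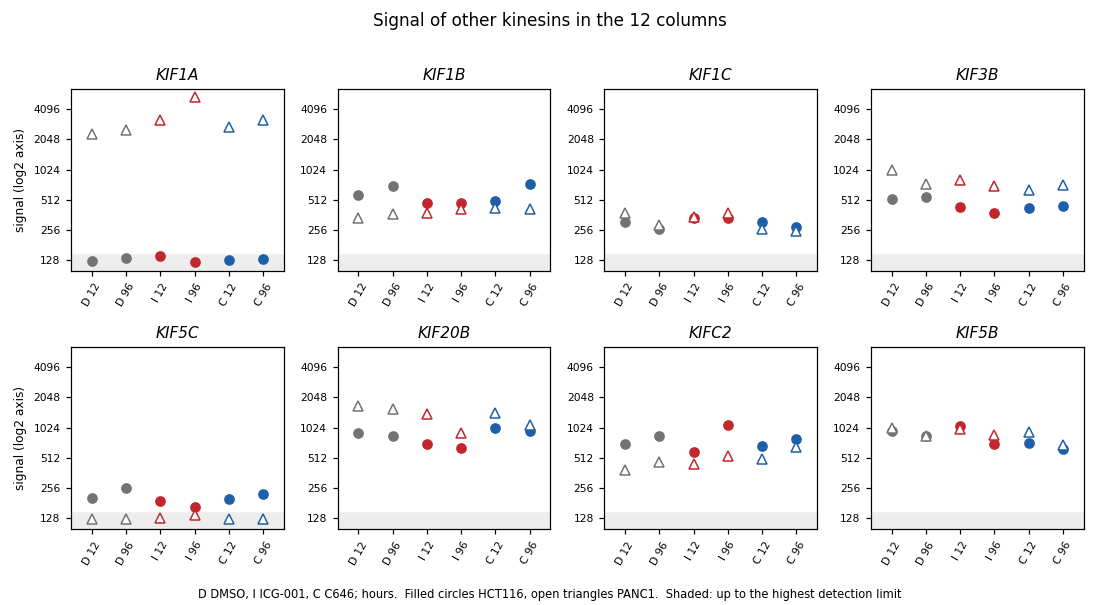
Signal intensity (vertical axis, log scale) of the other kinesins KIF1A, KIF1B, KIF1C, KIF3B, KIF5C, KIF20B, KIFC2 and KIF5B at 12 and 96 h in DMSO, ICG-001 and C646 in each line. Filled circles are HCT116, open triangles are PANC1, and each point is the authors' mean of 2 or 3 arrays. KIF1A lies far above the limit in PANC1, where ICG-001 at 96 h is its highest column, and is at or under the detection limit in HCT116.

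The remaining other kinesins that could be measured, KIF2A, KIF3A, KIF3C, KIF6, KIF7, KIF13A, KIF13B, KIF16B, KIF21A, KIF21B, KIF24, KIF26A, KIF27 and KIFC3, passed 1.5-fold in no comparison. KIF3A, KIF6, KIF13A, KIF27 and KIFC3 lay near the limit, where ratios are understated. KIF2A, a depolymerase of spindle poles and neurites, stood at 463 to 734 in HCT116 and 739.7 to 963 in PANC1. KIF21A, which slows microtubule growth at the cell cortex, stood at 716 to 828 and 704 to 816. KIF7, a regulator of hedgehog signaling in cilia, stood at 163 to 203 in PANC1, with its highest signal in ICG-001 at 96 h (log2 0.31 over DMSO). That column was also the highest of the line for KIF1A, KIF1C, KIF3C and KIF5C, 5 of 21 other kinesins against 23.2% of all genes.

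**Figure D5:**
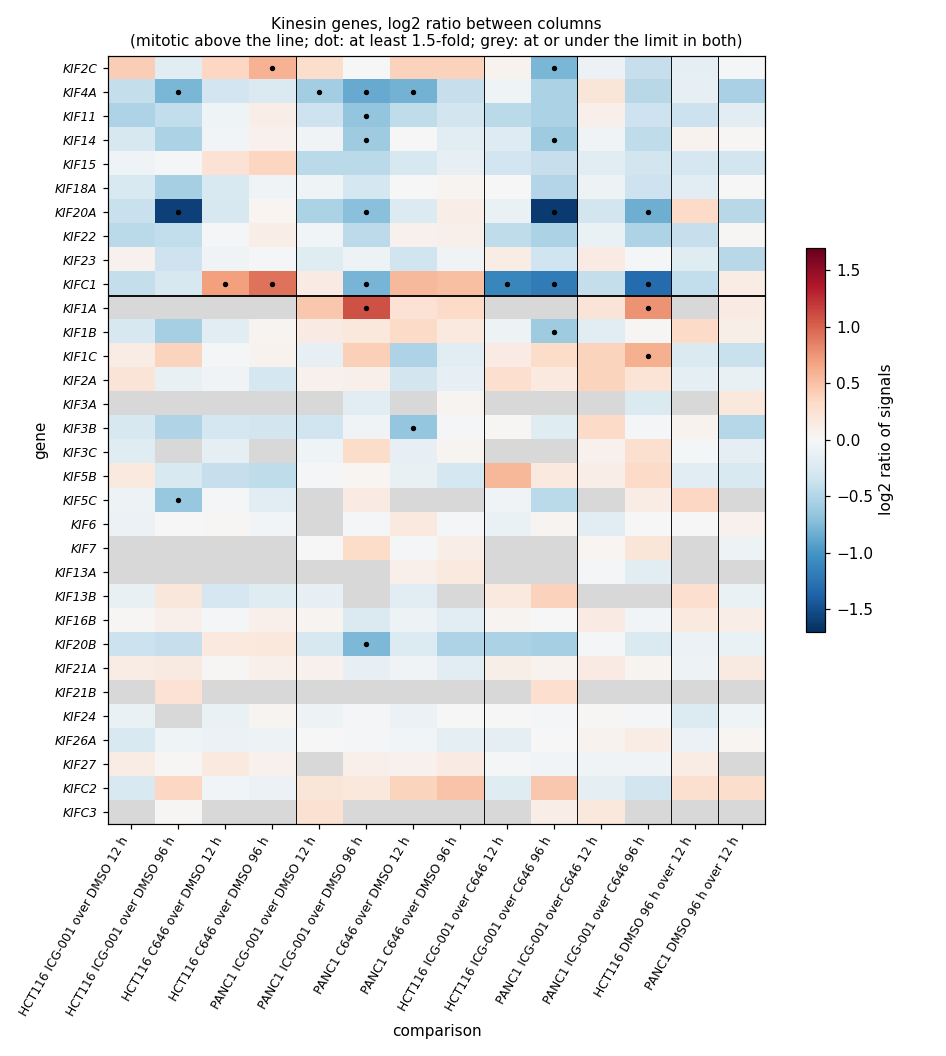
Log2 ratio of each kinesin above the limit in at least 1 comparison (rows, mitotic kinesins first) in the 14 comparisons (columns). Blue is lower and red is higher, a dot marks at least 1.5-fold and grey marks a gene that was under the limit in both columns. The mitotic rows hold 2 dots in HCT116 and 5 in PANC1 for ICG-001 over DMSO at 96 h.

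Over all 8 drug comparisons, 6 of 10 mitotic kinesins and 4 of 22 measurable other kinesins reached 1.5-fold at least once, as did 18.8% of all genes. Some of these 22 lay near the limit, where ratios are understated. Over time in DMSO, no kinesin reached 1.5-fold in either line. In HCT116, 1.55% of all genes were lower and 1.55% higher at 96 h, and in PANC1 0.333% were lower and 0.98% higher. Even so, 8 of 10 mitotic kinesins in HCT116 and 7 of 10 in PANC1 were lower at 96 h than at 12 h, with medians of -0.20 and -0.10. KIF4A had the widest gap, with a ratio of -0.55 in PANC1. DMSO at 12 h was the highest column of the line for 5 of 10 in PANC1 (KIF4A, KIF11, KIF15, KIF20A and KIF23), against 22.2% of all genes, and for 4 of 10 in HCT116, against 13.2%. The methods state that cultures for the 2 times were started at different densities. They also state that the 96 h cultures were passaged and that new medium was added daily. Time, starting density, passage and new medium cannot be told apart.

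Genes that work with the mitotic kinesins were read from a list of 15 spindle and midzone partners. With ICG-001 at 96 h, 15 of 15 were below 0 in each line, 8 fell in HCT116 with a list median of -0.67, against 5.11% of all genes lower, and 6 fell in PANC1 with a median of -0.47, against 3.55%. CENPE, a kinetochore motor of the kinesin family without a KIF name, fell in both, at -0.67 and -0.81. TPX2, which targets spindle assembly factors, fell at -0.91 and -0.84, and ANLN, a scaffold of the contractile ring, fell at -1.42 and -0.62. ASPM, which fell in HCT116 at -0.735, stood at -0.34 against DMSO at 12 h. With ICG-001 at 12 h in HCT116, 12 of 15 partners were below 0 with a median of -0.19. NUSAP1 and ANLN fell there at -0.71 and -0.69, 2 of 15 against 4.16% of all genes lower. Against DMSO at 96 h these ratios were -0.53 and -0.96. In PANC1 at 12 h, 13 of 15 were below 0 with a median of -0.18, and none reached 1.5-fold, against 0.335% of all genes lower. With C646 at 96 h no partner reached 1.5-fold, and the medians were 0.09 in HCT116 and -0.14 in PANC1. With C646 at 12 h in PANC1, TPX2 and ANLN fell at -0.95 and -0.71, 2 of 15 against 2.69% of all genes. Against DMSO at 96 h these ratios were -0.31 and -0.10. Over time in DMSO, 15 of 15 partners were lower at 96 h in PANC1, and 7 of 15 in HCT116. In PANC1, 2 of these passed 1.5-fold, against 0.333% of all genes.

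Markers of proliferation were read beside the class. Of 8 rows, 8 in HCT116 and 7 in PANC1 were below 0 with ICG-001 at 96 h, with a median of -0.41 in both. CCNB2 and TOP2A fell in HCT116 and CCNB1 and TOP2A in PANC1, 2 of 8 against 5.11% and 3.55% of all genes lower, while MKI67 stood at -0.16 and -0.24 PCNA at -0.02 and -0.57, and CDC20 at -0.08 and 0.15. The summed signal of the 8 rows was 10931 with ICG-001 at 96 h and 14037 to 19204 in the other HCT116 columns, and 14242 against 17233 to 20833 in PANC1. The summed signal of the 10 mitotic kinesins was 4557 against 6306 to 7761 in HCT116 and 5972 against 8452 to 9857 in PANC1. With ICG-001 at 12 h in HCT116 the orders of the sums differed, with kinesins at 6306 against 7522 in DMSO and markers at 16195 against 16089. CDC20, the brightest marker, rose there from 4954 to 7545, where 4.82% of all genes rose. Of the 8 rows, 5 were below 0 with a median of -0.15. TOP2A and PCNA fell at -0.70 and -0.76, 2 of 8 against 4.16% of all genes lower. Against DMSO at 96 h TOP2A stood at -0.56, PCNA at -0.0016 and CDC20 at 0.65. The part of proliferation in the kinesin result was not tested.

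The genes that serve transport were read in the same comparisons. Of 8 cargo adaptors of kinesins above the limit, KLC1, a kinesin light chain, and TRAK2, a mitochondrial adaptor, rose with ICG-001 at 96 h in HCT116, at 0.69 and 0.76, 2 of 8 against 5.14% of all genes higher, and none reached 1.5-fold in PANC1, where KLC1 stood at 0.45. Of 19 subunits of cytoplasmic dynein and dynactin, the motor of the opposite direction, DCTN5 rose in HCT116 at 0.65 and DCTN3 fell in PANC1 at -0.59, against 5.14% of all genes higher and 3.55% lower. Against DMSO at 12 h these ratios were 0.05 and -0.45, short of 1.5-fold, while KLC1 and TRAK2 stood at 0.66 and 0.68. The list medians were 0.06 and 0.00 for the adaptors and -0.12 and -0.03 for dynein and dynactin.

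Of 32 kinesins above the limit in some column, 27 (84.4%) were so in each line, against 80.1% of all genes above it in some column. KIF21B was so in HCT116 alone, and KIF1A, KIF3A, KIF7 and KIF13A were so in PANC1 alone. Sorted signals of the lines differ, which makes a separate normalization of each line likely, so levels were compared after quantile normalization over all 12 columns. In DMSO at 12 and 96 h, KIF4A was higher in PANC1 by a log2 difference of 1.40 and 0.98 and KIF23 by 0.69 and 0.45. The mitotic kinesins did not all go one way. KIF18A was lower in PANC1, with differences of -0.57 and -0.38, and KIF20A stood at 0.46 at 12 h and -0.32 at 96 h. KIF1B was lower in PANC1, with differences of -0.79 at 12 h and -1.005 at 96 h, and KIFC2 differed by -0.94 and -0.93. The share of all genes with differences of these sizes was not counted.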

How the data were processed

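RNA from the 12 groups was labelled with biotin and hybridised to Illumina HumanHT-12 v4 BeadChips. The authors normalized the arrays by quantiles in GenomeStudio, left background in, averaged replicate arrays and deposited signal intensity (linear) with 1 value per gene name. Ratios of dim genes therefore understate changes. The build behind the array annotation is not given in the sources used here, so coordinates are given only for RefSeq promoters. Columns were mapped to groups by the sample labels, and 0 columns were left unmapped.

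Signals were converted to log2 and subtracted within a line. As detection limit, 2.33 SD of the values below the density peak were added to that peak in each column. The mitotic kinesins, all other kinesins past 1.5-fold in any comparison, KIF18B and KIF20B were named by rule, and KIF5B, KIFC2, KIF2A, KIF3A, KIF7 and KIF21A were chosen after their values were seen. Members and gene lists were chosen with earlier results of these data known. No test was run, since each group had 1 column, and the number of arrays limits the precision. As a check of the code alone, the ratio procedure was run on simulated 2-fold changes of bright genes with the noise of background ratios. Replicate variation and smaller changes were not simulated. Promoter strings were searched on both strands of 300 bases. Computation ran in Python 3.11.15 (matplotlib 3.10.9, numpy 2.4.6, pandas 2.3.3, scipy 1.17.1) and, for normexp background correction, in R 4.3.3 (limma 3.58.1). Alternatives were thresholds of 1.2-fold and 2-fold, a limit at 5 SD, no filter, normexp (offset 16), centred ratios, quantile normalization over 12 columns, KIF18B and KIF20B moved between classes and, chosen after seeing the data, the DMSO column of the other time as control.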

Additional observations from a re-analysis of the deposited data

How the results depend on the processing

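Without a filter on dim genes, with the limit at 5 SD, with centred ratios and with quantile normalization over 12 columns, the class medians kept their sign or moved by less than the spread of background ratios, and the counts of kinesins past the threshold stayed within 1.5 times. No ratio of a named kinesin that passed 1.5-fold changed sign under any alternative. The comparisons are given below in the order ICG-001 over DMSO at 12 and 96 h, then C646 over DMSO at 12 and 96 h, in HCT116 and then in PANC1, followed by ICG-001 over C646 and by DMSO over time.

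At a threshold of 1.2-fold, 11, 14, 8 and 6 kinesins passed in HCT116 and 8, 13, 11 and 8 in PANC1, then 7 and 17 in HCT116 and 5 and 14 in PANC1 for ICG-001 over C646 at 12 and 96 h, and 9 and 7 for DMSO at 96 h over 12 h. At 2-fold, 1 passed for ICG-001 over DMSO at 96 h in each line and 0 for C646 over DMSO at 12 and 96 h in HCT116 and for both drugs at 12 h in PANC1. For ICG-001 over C646 at 96 h, 2 passed in HCT116 and 1 in PANC1.

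After normexp correction, which removes background, 3 and 8 kinesins passed in HCT116 for ICG-001 at 12 and 96 h, 3 in PANC1 for ICG-001 at 12 h, and 5 and 2 in PANC1 for C646 at 12 and 96 h. For ICG-001 over C646 in HCT116, 3 and 12 passed at 12 and 96 h, and 1 passed in each line for DMSO over time. The mitotic medians were then -0.41 and -0.50 for ICG-001 at 12 and 96 h in HCT116, -0.63 for ICG-001 at 96 h in PANC1, -0.74 and -0.51 for ICG-001 over C646 at 96 h in HCT116 and PANC1, and -0.27 for DMSO over time in HCT116. The medians of the other kinesins were -0.26 for ICG-001 at 12 h and -0.13 for C646 at 96 h in HCT116, and -0.16 for C646 at 12 h in PANC1. With KIF18B and KIF20B among the mitotic kinesins, the PANC1 medians were -0.61 for ICG-001 at 96 h and -0.23 for C646 at 12 h. Of the 2 genes only KIF20B was above the limit and entered these medians.

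Against the DMSO column of the other time, chosen after seeing the data, 2, 7, 2 and 1 kinesins passed in HCT116, and 0 at 12 h for each drug and 4 for C646 at 96 h passed in PANC1. In HCT116 the mitotic medians became -0.068, -0.71, 0.22 and -0.0756, and in PANC1 they became -0.0656, -0.63, 0.0454 and -0.26, so the sign turned for C646 at 12 and 96 h in HCT116 and for C646 at 12 h in PANC1. The median of the other kinesins was -0.0903 for ICG-001 at 96 h in HCT116. The cause of these shifts was not tested. Signals near the detection limit, as for KIF5C in PANC1 and KIF18B, allow no ratio, and no error can be given for any value.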
